A study of Mus musculus with 9 samples.

Results

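Pcx, Pck2, Slc37a4 and Slc2a2 are genes of the route by which the kidney makes and releases glucose, and they were followed through RNA sequencing of kidney tumours and normal kidney in mice. They were taken from the deposited count table by gene symbol, 4 of its 14052 genes. No threshold on a measured value was applied, but they were chosen with earlier results of these data known. The tumour group has 5 areas of tumour in the renal cortex (L4, R2, R3, R4, R5), taken from animals whose Vhl and Pbrm1 alleles were both floxed (F/F) and which carried Ksp-Cre, on a mixed C57BL/6, BALB/c and 129 background. The normal group has 4 areas of renal cortex (L1, L2, R1, R2) of wild-type C57BL/6 animals without Cre. All mice ate normal diet and were about 1 year old. Ksp is the promoter of Cdh16, which drives Cre in the epithelium of the kidney tubule. The descriptions of the tumour areas share 1 number and those of the normal areas share another, so each group may come from 1 animal. The p-values then measure the spread between areas, and strain and genotype cannot be told apart.

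Kidney cells of the proximal tubule build glucose from lactate, glutamine and glycerol, and they also return the glucose they reabsorb from the filtrate to the blood. Pcx, pyruvate carboxylase, is a biotin enzyme of the mitochondrion that turns pyruvate into oxaloacetate. Pck2, the mitochondrial phosphoenolpyruvate carboxykinase, turns oxaloacetate into phosphoenolpyruvate, a step that Pck1 carries out in the cytosol. Slc37a4 carries glucose 6-phosphate into the endoplasmic reticulum, where a glucose 6-phosphatase frees the glucose. Slc2a2, also called GLUT2, lets the glucose leave through the basolateral membrane. Counts for Pck1 and for G6pc, the cytosolic carboxykinase and the phosphatase of kidney and liver, were not analysed here.

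Counted reads ran from 5143527 to 8250261 per area, and 7020 genes had enough reads to be tested. Levels are CPM, the reads of a gene per 1000000 counted reads, scaled by TMM, a factor that evens out differences in composition between libraries, and "changed" means an adjusted p under 0.05 in edgeR's quasi-likelihood test with Benjamini-Hochberg adjustment over all tested genes. No count in any area was listed for 3989 genes (28.4%), among them Gapdh, Pgk1, Eno1 and Slc2a1, so a row at 0 says nothing about expression in this table. Rows with few reads occur too. Of 22 proximal tubule markers with a row, 19 were tested, 1 was at 0 and 2 were too low. Those 2 were Miox, with 16 reads in all areas together, and Ggt1, with 10. How far such low rows reflect expression was not tested. Vhl averaged 60.0 ± 11.95 CPM in tumour areas and 104 ± 4.69 CPM in normal areas (SD, n = 5 and 4), a log2 fold change of -0.79 ± 0.13 (SE, adjusted p = 0.000248, edgeR). Pbrm1 averaged 136 ± 21.5 CPM in tumour areas and 155 ± 10.1 CPM in normal areas, a difference that did not pass (-0.19 ± 0.11, adjusted p = 0.142, edgeR). Counts per gene cannot show a deleted exon. In these pieces of tissue, fewer cells of a type and less RNA per cell cannot be told apart.

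The starts of Pcx, Pck2 and Slc2a2 are shown because Pck2 and the other genes moved in opposite directions. Each sequence gives the 250 bases before the annotated start, from RefSeq on GRCm38.p6, plus strand, 5′ to 3′. Capitals mark the letters of the motifs found. Pcx lies at chr19:4510222-4510471, Pck2 at chr14:55540016-55540265 and Slc2a2 at chr3:28697653-28697902.
Pcx: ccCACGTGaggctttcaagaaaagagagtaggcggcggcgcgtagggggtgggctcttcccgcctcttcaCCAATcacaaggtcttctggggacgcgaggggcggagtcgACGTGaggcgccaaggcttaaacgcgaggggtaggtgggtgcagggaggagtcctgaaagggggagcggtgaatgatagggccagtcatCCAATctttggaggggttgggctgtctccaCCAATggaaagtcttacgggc
Pck2: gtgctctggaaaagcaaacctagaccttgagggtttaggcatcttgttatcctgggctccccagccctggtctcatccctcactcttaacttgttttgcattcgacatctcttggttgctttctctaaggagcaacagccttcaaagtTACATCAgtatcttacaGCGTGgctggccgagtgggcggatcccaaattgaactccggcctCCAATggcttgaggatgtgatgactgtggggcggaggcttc
Slc2a2: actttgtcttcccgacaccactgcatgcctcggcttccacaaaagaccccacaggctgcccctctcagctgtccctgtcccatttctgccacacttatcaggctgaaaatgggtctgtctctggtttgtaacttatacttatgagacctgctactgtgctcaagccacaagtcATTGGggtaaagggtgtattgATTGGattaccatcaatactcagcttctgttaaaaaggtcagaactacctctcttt

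The motifs were searched on both strands: the core bound by the hypoxia-inducible factors HIF (ACGTG or GCGTG), the start of the composite site of ATF4 and C/EBP (TGATGNA), a part of the cAMP response element (TGACG), a part of the HNF4 site (AGTCCA), the CCAAT box (CCAAT) and the TATA box (TATAAA). The first Pcx start held the HIF core at 3 places, beginning 248, 247 and 140 bases before the start. The first pair overlap as the opposite strands of the palindrome CACGTG. It also held 3 CCAAT boxes, and a second Pcx start on the same chromosome, with its window at chr19:4594069-4594318, held no motif of the search. The Pck2 window held 1 HIF core 85 bases before the start, 1 start of the ATF4 and C/EBP site, read on the opposite strand as TACATCA 102 bases before the start, and 1 CCAAT box. The Slc2a2 window held 2 CCAAT boxes on the opposite strand. No window of Pcx, Pck2, Slc37a4 or Slc2a2 held the HNF4 motif. Slc37a4 has 3 starts in RefSeq, whose windows reach into its own exons and are not printed. They held TGACG beginning 61 bases before the first start, TGACG at 2 places before the second start, 1 of them the same bases, and a TATA box before the third. The HIF core occurs in 38.6% of the 32851 promoters of the table, TGATGNA in 10.4%, TGACG in 17.8%, CCAAT in 33.8%, TATAAA in 12.4% and AGTCCA in 11.5%. A match is a string of letters and not a measured site.

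In the tumour areas, transcripts for the entry of pyruvate (Pcx), for the transport of glucose 6-phosphate (Slc37a4) and for the exit of glucose (Slc2a2) were lower, and transcripts of the mitochondrial carboxykinase (Pck2) were higher. No tumour area overlapped a normal area for any of these genes. Calls are common in this comparison: 74.6% of the 7020 tested genes were called, 39.3% higher and 35.3% lower in tumours, and 67.8% had groups that did not overlap. The calls of the glucose output genes are therefore read by their size and by their values in each area.

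Pcx had 532, 453, 664, 719 and 623 CPM in tumour areas L4, R2, R3, R4 and R5, against 1448, 1567, 1572 and 1554 CPM in normal areas L1, L2, R1 and R2. Every tumour area lay under every normal area, with R2 the lowest and R4 the highest of the tumours. The mean was 598 ± 106 CPM in tumour areas and 1535 ± 58.7 CPM in normal areas (SD, n = 5 and 4). The log2 fold change was -1.36 ± 0.12 (SE), a level 2.57-fold lower in tumours (adjusted p = 3.59e-06, edgeR). A lower log2 fold change was found for 7.92% of the tested genes.

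Slc37a4 had 230, 278, 355, 387 and 323 CPM in tumour areas L4, R2, R3, R4 and R5, against 659, 696, 744 and 710 CPM in normal areas L1, L2, R1 and R2. The groups did not overlap, and L4 was the lowest and R4 the highest of the tumour areas. The mean was 315 ± 62.2 CPM in tumour areas and 702 ± 35.0 CPM in normal areas. Slc37a4 fell by 1.16 ± 0.13 on the log2 scale (SE), or 2.23-fold (adjusted p = 1.92e-05, edgeR), and 10.2% of tested genes had a lower value.

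Slc2a2 was read 1, 2, 1, 4 and 2 times in tumour areas L4, R2, R3, R4 and R5, against 14, 23, 27 and 10 times in normal areas L1, L2, R1 and R2. In CPM these are 0.139 to 0.581 in tumour areas and 2.02 to 4.48 in normal areas. Such values are near the limit of what this depth can measure, and whether the row holds all reads of the gene was not tested. The summed counts were 10 in tumour areas and 74 in normal areas, a ratio of summed CPM of 0.0964 with an exact 95% interval of 0.0444 to 0.187 that covers counting error only. The log2 fold change was -3.28 ± 0.38 (adjusted p = 2.05e-05, edgeR). Slc2a2 passed the filter on low counts through the normal areas alone: 0 of 5 tumour areas and 4 of 4 normal areas reached its 1.68 CPM, so a call in this direction was the one open to it. Pcx, Pck2 and Slc37a4 reached that level in all 9 areas.

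Pck2 had 134, 109, 81.9, 91.9 and 104 CPM in tumour areas L4, R2, R3, R4 and R5, against 33.8, 31.8, 32.6 and 33.0 CPM in normal areas L1, L2, R1 and R2. The lowest tumour area, R3, lay well above all normal areas, which were nearly equal to each other. The mean was 104 ± 19.7 CPM in tumour areas and 32.8 ± 0.827 CPM in normal areas. Pck2 rose by 1.67 ± 0.13 on the log2 scale (SE), or 3.18-fold (adjusted p = 1.49e-06, edgeR), and 89.4% of tested genes had a lower log2 fold change. In GENCODE M21, 53 of its 7806 exon bases overlap Gm10876 on the opposite strand, and 1.69% of the 50-base stretches of its transcripts also occur in other genes. The strand setting of the counting is not given in the sources used here, so reads over those 53 bases cannot be told apart. Pcx, Slc37a4 and Slc2a2 share no exon bases and no 50-base stretch with other genes.

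**Figure D1:**
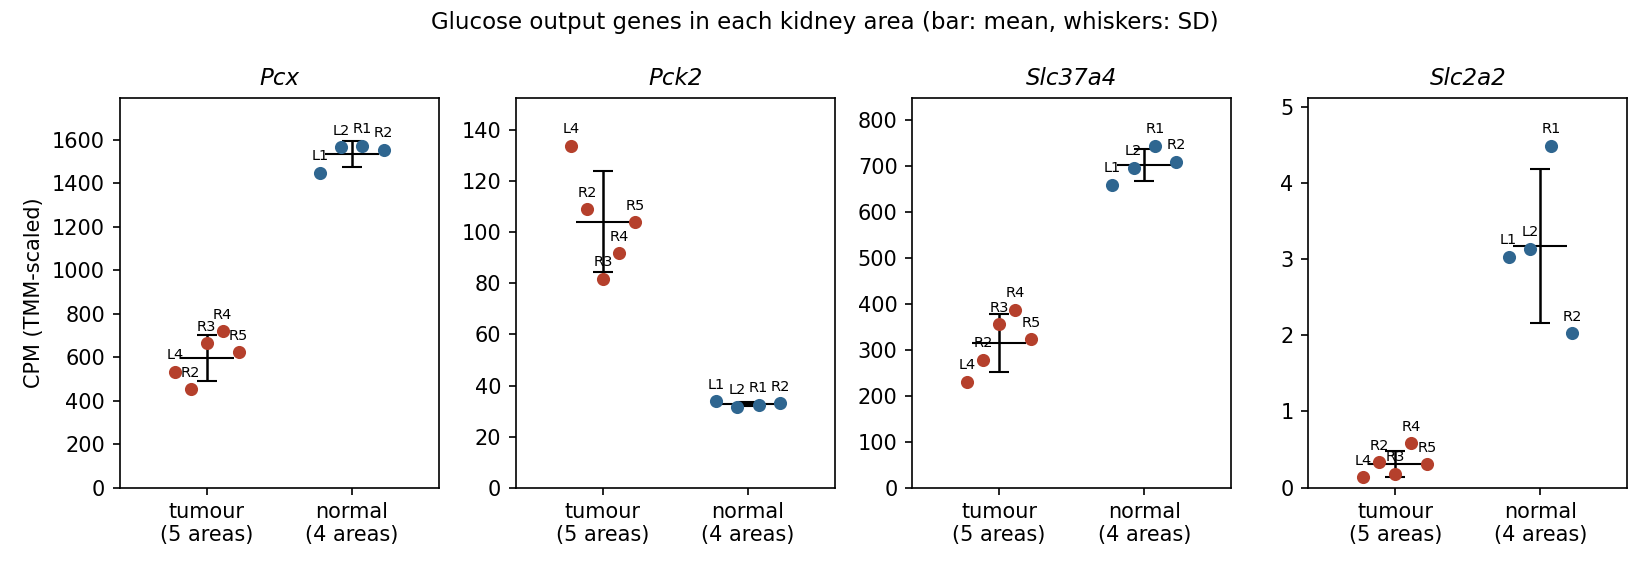
CPM of Pcx, Pck2, Slc37a4 and Slc2a2 in each tumour area (red, left) and each normal area (blue, right), with the mean as a bar and the SD as whiskers, each panel on its own linear axis from 0. Tumour areas of Pcx, Slc37a4 and Slc2a2 all lie below the normal areas, and tumour areas of Pck2, from 81.9 to 134 CPM, all lie above them.

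These 4 genes kept their direction and their call under all 18 other scalings, filters, tools and sets of areas tried. Without tumour areas L4 and R5, in which fat and urothelium markers were highest, the log2 fold changes were -1.31 for Pcx, -1.03 for Slc37a4, -3.00 for Slc2a2 and 1.54 for Pck2. Scaling by library size alone, which shifted the median of all genes by 0.29, gave -1.08, -0.88, -3.00 and 1.97 for the same genes.

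**Figure D2:**
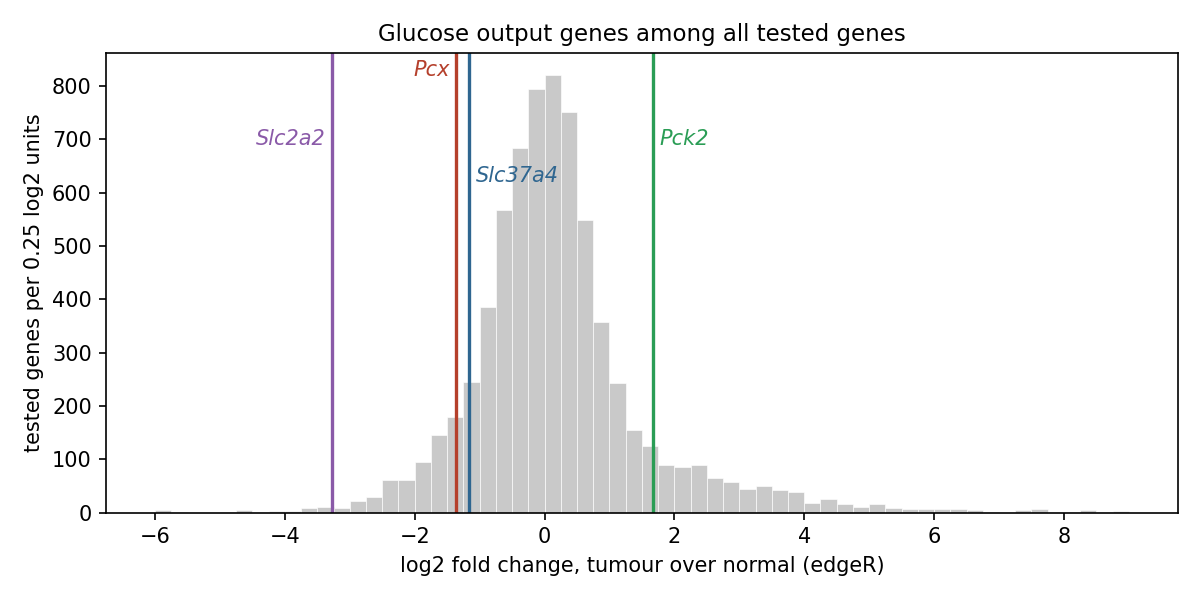
Histogram of the log2 fold change, tumour over normal, of the 7020 tested genes in steps of 0.25, with vertical lines at Slc2a2 (-3.28), Pcx (-1.36), Slc37a4 (-1.16) and Pck2 (1.67). Slc2a2 lies in the lower tail, with 0.499% of tested genes below it, and the other lines stand on the flanks of the distribution.

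The genes differed in counted level by orders of magnitude, with the same order of mean levels per exon length in both groups. Divided by the exon length of GENCODE M21 on GRCm38, which may differ from the annotation the authors counted on, Pcx stood at 126 CPM per kb in tumour areas and 323 in normal areas. Slc37a4 followed with 110 CPM per kb in tumour areas and 246 in normal areas. Pcx exceeded Slc37a4 on this scale in 4 of 5 tumour areas and in 4 of 4 normal areas. The ranges of these 2 neighbours overlapped in tumours (95.4 to 151 for Pcx, 80.5 to 135 for Slc37a4) and not in normal areas (305 to 331 for Pcx, 231 to 260 for Slc37a4). Pck2 came next with 13.3 CPM per kb in tumour areas and 4.20 in normal areas. Slc2a2 was last with 0.0536 CPM per kb in tumour areas and 0.551 in normal areas. Neither Pck2 nor Slc2a2 overlapped its neighbours in this order.

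Tumour areas varied more among themselves than normal areas did. The coefficient of variation of Pcx was 17.7% in tumour areas and 3.82% in normal areas, that of Slc37a4 was 19.8% in tumour areas and 4.99% in normal areas, and that of Pck2 was 18.9% in tumour areas and 2.52% in normal areas. Over all tested genes the median was 14.5% in tumour areas and 6.69% in normal areas, so a wider spread in tumours was general. The highest tumour area exceeded the lowest 1.59-fold for Pcx, 1.68-fold for Slc37a4 and 1.64-fold for Pck2. The corresponding spans in normal areas were 1.09-fold, 1.13-fold and 1.06-fold. Pcx and Slc37a4 were both highest in R4, then R3, then R5, whereas Pck2 was lowest in R3 and next lowest in R4.

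Ratios of counts within an area do not depend on the scaling, and they are given as descriptions without a test. The Pck2 to Pcx ratio was 0.182 ± 0.0610 in tumour areas, with a range of 0.123 to 0.252, and 0.0214 ± 0.00134 in normal areas, with a range of 0.0203 to 0.0233. The ratio of means was 8.51, and no area overlapped. This order follows from the values above, since Pck2 was higher and Pcx lower in every tumour area. The same holds for the ratios of G6pc3 and Slc37a1 to Slc37a4 given below. Pcx to Slc37a4, by contrast, stood at 1.92 ± 0.248 in tumour areas (1.63 to 2.31) and 2.19 ± 0.0561 in normal areas (2.11 to 2.25), and these ranges overlapped. The overlap came from tumour L4 (2.31). Tumour R2 (1.63), R3 (1.87), R4 (1.86) and R5 (1.93) lay under every normal area. Over the 9 areas, the root mean square difference between the log2 CPM of Pcx and Slc37a4, each taken relative to its normal mean, was 0.192, the smallest of the 6 pairs. Both genes of that pair had been measured in the same 9 libraries, and most of each profile is the step between the groups. For Pcx and Pck2 it was 2.27.

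**Figure D3:**
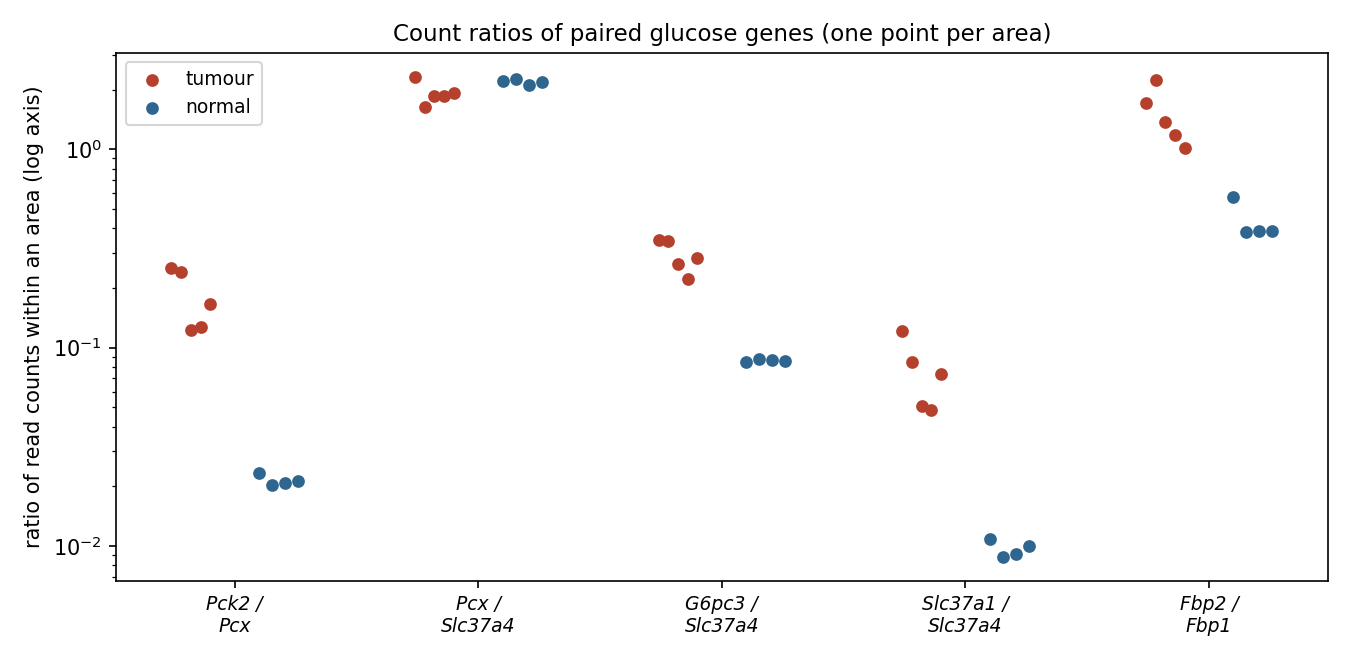
Ratio of read counts of paired genes within each area on a log axis, with 5 tumour areas in red on the left of each pair and 4 normal areas in blue on the right. Pck2 over Pcx lies between 0.123 and 0.252 in tumour areas and between 0.0203 and 0.0233 in normal areas. Pcx over Slc37a4 overlaps between the groups through tumour area L4 alone, and the other tumour areas lie under the normal areas.

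The proximal tubule is the site of renal glucose synthesis, and its markers were lower in the same areas. Of 19 tested markers of the proximal tubule, 17 were lower and 0 higher in tumours, against 35.3% lower over all tested genes. The markers had a median log2 fold change of -1.31, against 0.06 for all tested genes. Their summed level ran from 29845 to 54822 CPM in tumour areas and from 73851 to 76263 CPM in normal areas, and Slc6a19 was listed at 0 in all areas. In tumour areas the sum was 29845 in L4, 40210 in R2, 51057 in R3, 54822 in R4 and 45541 in R5. R4 and R3, with the most Pcx and Slc37a4, also had the highest sums, and L4 and R2 the lowest. A large part of these sums was Kap, at 24068 CPM in tumour areas and 24715 CPM in normal areas, which was not called. By the mean log2 level of the list relative to normal, R4 (-0.886) and R3 (-0.972) were again highest, with R2 (-1.822) and L4 (-1.782) lowest. The part of these markers in the lower Pcx, Slc37a4 and Slc2a2 was not tested. Within an area, Pcx counts relative to a marker were higher in every tumour area than in any normal area for 4 of the 19 markers, lower for 5 and overlapping for 10. For Slc37a4 these numbers were 5, 4 and 10, so the direction of such a ratio depends on the marker. Relative to Slc34a1, a phosphate carrier of the brush border, Pcx averaged 0.137 in tumour areas and 0.106 in normal areas, with no overlap. Relative to Lrp2, the endocytic receptor megalin, Pcx averaged 0.176 in tumour areas and 0.197 in normal areas, with overlap. Relative to Slc27a2, a fatty acid transport protein, Pcx averaged 0.249 in tumour areas and 0.476 in normal areas, again with no overlap. The Slc37a4 ratio to Lrp2 averaged 0.0904 in tumour areas and 0.0903 in normal areas.

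Markers of several other cell types were higher in the tumour areas. For comparison with the counts below, 39.3% of all tested genes were higher and 35.3% lower. Of 10 tested leukocyte markers 9 were higher and 0 lower in tumours, and their summed level was 1239 to 2939 CPM in tumour areas and 87.2 to 115 CPM in normal areas, with Ptprc listed at 0 in all areas. The leukocyte sum was 2939 CPM in L4, 1688 in R2, 1422 in R3, 1239 in R4 and 2082 in R5. L4 was the highest area for both this sum and Pck2, and R3 and R4 were the lowest pair for both. All 6 tested urothelium markers were higher, with sums of 43.9 to 1241 CPM in tumour areas and 0.997 to 7.36 CPM in normal areas. Of this list only Upk1b and Krt5 were tried under other settings. Both lost their call with limma-voom (adjusted p = 0.178 and 0.165). Upk1b, Krt5 and the leukocyte marker Cd79b reached the filter level in 0 of 4 normal areas, and Upk3a had 3 reads in all normal areas together. At least for these genes, a higher level was the one call open. Of 11 tested endothelium and stroma markers 5 were higher and 5 lower, with sums of 1579 to 4037 CPM in tumour areas and 1215 to 1285 CPM in normal areas. Those higher were the stromal genes Col1a1, Col3a1, Acta2, Dcn and Lum. The endothelial genes Pecam1 (-0.872), Kdr (-0.847), Flt1 (-0.955) and Tek (-1.767) were lower, as was Pdgfrb (-0.655), and Cdh5 was not called. Of 3 tested fat markers 1, Cfd, was higher, though not with limma-voom or without tumour areas L4 and R5 (sums of 6.71 to 746 CPM in tumour areas and 9.92 to 31.7 CPM in normal areas). The part of these lists in the higher Pck2 was not tested. Of 11 tested markers of the distal nephron 10 were lower, with sums of 1557 to 6997 CPM in tumour areas and 11048 to 11244 CPM in normal areas. Of 5 tested liver markers 4 were lower and 1, Ttr, was higher, with sums of 154 to 389 CPM in tumour areas and 75.4 to 85.2 CPM in normal areas.

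**Figure D4:**
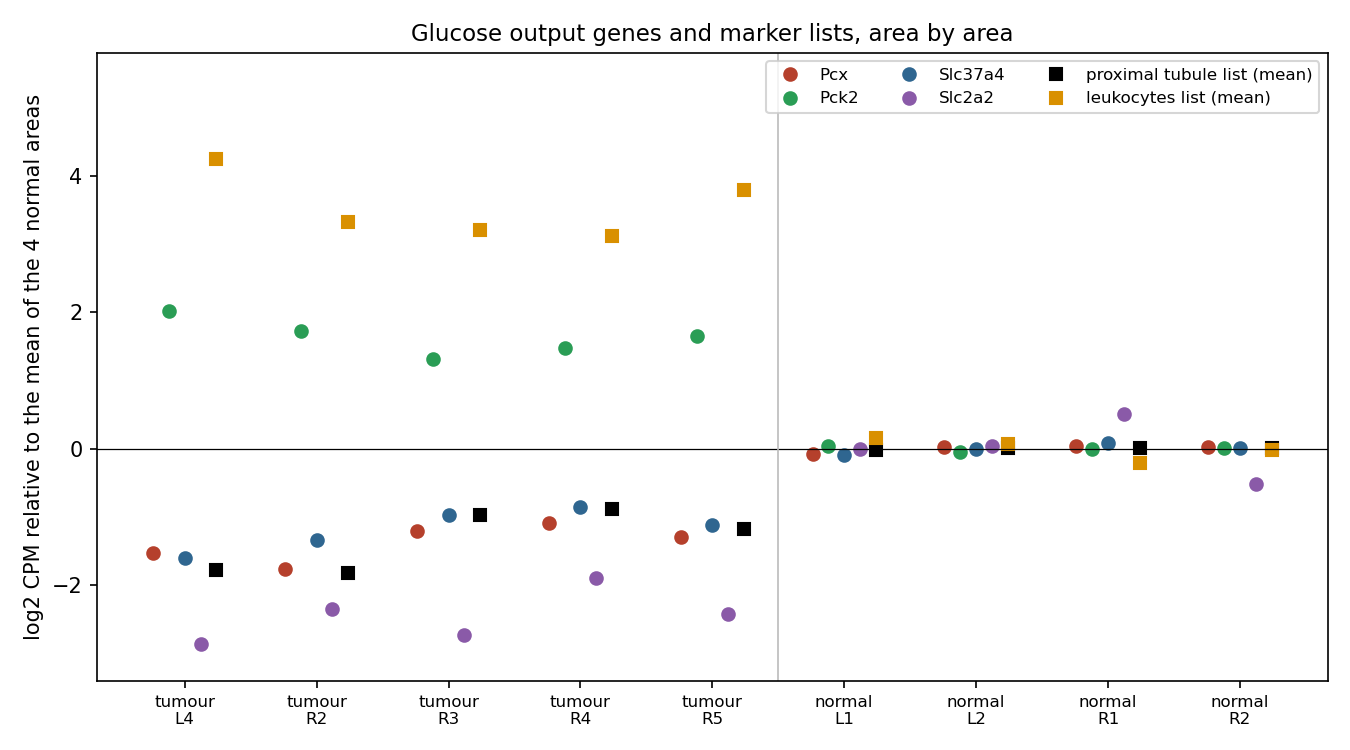
Log2 CPM relative to the mean of the 4 normal areas for Pcx, Pck2, Slc37a4 and Slc2a2 (circles) and the mean over the proximal tubule and leukocyte marker lists (squares), for 5 tumour areas on the left and 4 normal areas on the right, with small sideways shifts to keep symbols apart. Pcx, Slc37a4 and the proximal tubule list lie near each other below 0 in tumours, from -0.89 to -1.82 for the list, while Pck2 and the leukocyte list lie above 0, and the added prior count of 2 pulls Slc2a2 toward 0.

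Among the genes for the irreversible steps of glucose synthesis, several relatives of the forms typical of kidney and liver were higher. Of 12 fixed genes 9 were tested, of which 4 were higher, 2 were lower and 3 were not called, and the median log2 fold change was -0.06. Those called were 6 of 9, against 74.6% of all tested genes. Fbp1, the fructose 1,6-bisphosphatase of liver and kidney, had 27.3, 42.0, 51.7, 59.2 and 45.7 CPM in tumour areas L4, R2, R3, R4 and R5, against 45.7, 54.7, 55.1 and 60.7 CPM in normal areas L1, L2, R1 and R2. The groups overlapped and the difference did not pass (-0.26 ± 0.19, adjusted p = 0.231, edgeR), though it passed with the area letter as a covariate (-0.43, adjusted p = 0.0283) and was 0.02 with library size alone. Fbp2, the muscle form, had 46.8, 93.8, 71.0, 69.7 and 46.4 CPM in tumour areas, against 26.4, 21.0, 21.4 and 23.5 CPM in normal areas. Fbp2 rose in all tumour areas, by 1.51 ± 0.21 on the log2 scale (adjusted p = 8.89e-05, edgeR). The Fbp2 to Fbp1 count ratio was 1.503 ± 0.485 in tumour areas (1.02 to 2.24) and 0.434 ± 0.0959 in normal areas (0.384 to 0.578).

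G6pc3, the glucose 6-phosphatase found in most tissues, works with the carrier Slc37a4. It had 80.6, 96.3, 93.5, 86.0 and 91.5 CPM in tumour areas L4, R2, R3, R4 and R5, against 56.0, 61.0, 64.6 and 61.1 CPM in normal areas L1, L2, R1 and R2. G6pc3 rose by 0.56 ± 0.07 (adjusted p = 3.37e-05, edgeR), with no overlap. Its count ratio to Slc37a4 was 0.293 ± 0.0552 in tumour areas (0.222 to 0.350) and 0.0864 ± 0.00108 in normal areas (0.0850 to 0.0876). Slc37a1, a relative of Slc37a4 whose human protein also exchanges glucose 6-phosphate for phosphate, averaged 22.4 ± 4.04 CPM in tumour areas and 6.79 ± 0.461 CPM in normal areas (log2 fold change 1.73 ± 0.15, adjusted p = 3.47e-06, edgeR). The Slc37a1 to Slc37a4 ratio of counts was 0.0759 ± 0.0296 in tumour areas (0.0488 to 0.121) and 0.00970 ± 0.000903 in normal areas. Slc37a2 (3.58 ± 1.08 CPM in tumour areas and 3.84 ± 0.985 CPM in normal areas) and Slc37a3 (191 ± 26.1 CPM in tumour areas and 199.5 ± 6.08 CPM in normal areas) did not pass the test. With library size alone, Slc37a3 was called higher, at 0.22 (adjusted p = 0.0272). G6pc2 was listed at 0 in all areas.

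**Figure D5:**
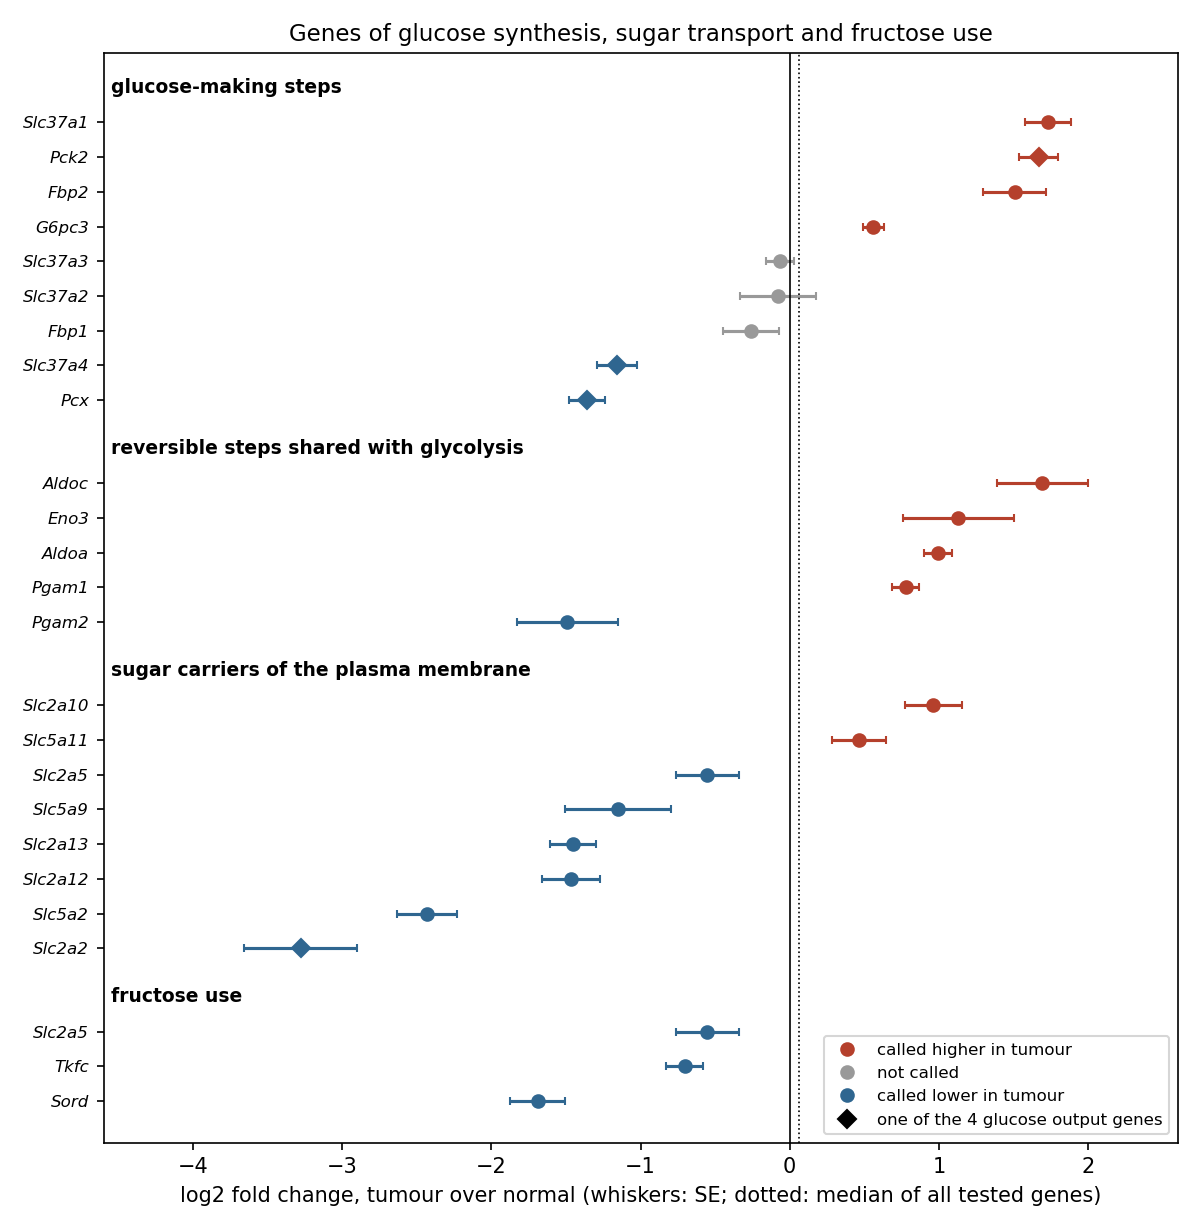
Log2 fold change, tumour over normal, with its SE for each tested gene of glucose-making steps, reversible steps, sugar carriers and fructose use. Red points were called higher, blue points lower and grey points not called; diamonds mark Pcx, Pck2, Slc37a4 and Slc2a2, and the dotted line is the median of all tested genes, 0.06.

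The reversible steps run in both glycolysis and glucose synthesis, and most of their tested genes were higher. Of 5 tested genes 4 were higher and 1 lower, against 39.3% higher over all tested genes, with a median log2 fold change of 0.99. Aldoa, the aldolase of most tissues, averaged 440 ± 60.8 CPM in tumour areas and 221 ± 2.41 CPM in normal areas (0.99 ± 0.10, adjusted p = 5.77e-06, edgeR). Pgam1 was higher by 0.78 ± 0.09, Pgam2, the muscle phosphoglycerate mutase, was lower (-1.49 ± 0.34), and Aldoc was higher by 1.69 ± 0.30 at about 2.14 CPM in tumour areas and 0.627 CPM in normal areas. Eno3 was called at similar depth (1.13 ± 0.37, adjusted p = 0.0184, edgeR), a call that was lost without normal area L2 or R1. Neither Aldoc nor Eno3 reached the filter level in a normal area.

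Slc2a2 was one of several sugar carriers that were lower. Of 8 tested carriers of the plasma membrane 6 were lower and 2 higher, with a median log2 fold change of -1.30. Over all tested genes 35.3% were lower and 39.3% higher. Slc5a2, also called SGLT2, takes most glucose back from the filtrate in the early proximal tubule. It had 145, 97.7, 199, 215 and 207 CPM in tumour areas L4, R2, R3, R4 and R5, against 868, 957, 938 and 968 CPM in normal areas L1, L2, R1 and R2, with no overlap (-2.43 ± 0.20, adjusted p = 2.02e-06, edgeR). Slc2a12 was lower, at 17.7 ± 4.90 CPM in tumour areas and 49.0 ± 4.61 CPM in normal areas (-1.47 ± 0.20, adjusted p = 6.33e-05). So was Slc2a13, a carrier of myo-inositol, at 13.4 ± 2.90 CPM in tumour areas and 36.8 ± 3.81 CPM in normal areas (-1.46 ± 0.15, adjusted p = 1.16e-05). Slc5a9 averaged 1.31 ± 0.705 CPM in tumour areas and 2.93 ± 0.522 CPM in normal areas (-1.15 ± 0.36, adjusted p = 0.0130). Slc2a10 was higher (0.96 ± 0.19, adjusted p = 0.00104). Slc5a11, a carrier of inositol, averaged 43.0 ± 11.2 CPM in tumour areas and 31.1 ± 3.16 CPM in normal areas with overlapping groups (0.46 ± 0.18, adjusted p = 0.0391), and its call was lost with RLE scaling, with limma-voom, with the area letter as a covariate and without tumour area R2 or R4 or normal area L1, L2 or R2. The rows of Slc2a1 and Slc2a9 were at 0 in all areas.

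Fructose joins the route at the triose phosphates, and the tested genes of its use were lower. Khk, with 13 reads in all areas together, was too low to test, and Akr1b3 and Glyctk were listed at 0. All 3 tested genes of fructose use were called lower, against 35.3% of all tested genes. Their median log2 fold change was -0.70, and Slc2a5 also stands in the list above. Sord, which makes fructose from sorbitol, averaged 1762 ± 475 CPM in tumour areas and 5680 ± 128 CPM in normal areas (-1.69 ± 0.18, adjusted p = 1.39e-05, edgeR). Tkfc, which phosphorylates glyceraldehyde, averaged 650 ± 116 CPM in tumour areas and 1060 ± 22.9 CPM in normal areas (-0.70 ± 0.12, adjusted p = 0.000425, edgeR). Slc2a5, the fructose carrier also called GLUT5, averaged 165 ± 53.9 CPM in tumour areas and 243 ± 17.7 CPM in normal areas with overlapping groups (-0.55 ± 0.21, adjusted p = 0.0352, edgeR). The Slc2a5 call was lost without tumour area L4, R2 or R5 or normal area L1, L2 or R2 (adjusted p from 0.0512 to 0.0822), with upper quartile scaling, with library size alone (-0.28, adjusted p = 0.205) and without tumour areas L4 and R5 together.

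Carriers and enzymes that supply lactate, pyruvate and glycerol were lower for the most part: of 10 tested genes 8 were lower and 2 higher, and the median log2 fold change was -1.61. Among all tested genes 35.3% were lower and 39.3% higher. Slc16a7, a carrier of pyruvate and lactate, averaged 10.7 ± 5.69 CPM in tumour areas and 121 ± 12.8 CPM in normal areas (-3.50 ± 0.32, adjusted p = 3.82e-06, edgeR). Slc5a12, a sodium-coupled lactate carrier of the proximal tubule, averaged 0.547 ± 0.402 CPM in tumour areas and 5.56 ± 0.986 CPM in normal areas (-3.27 ± 0.35, adjusted p = 1.16e-05, edgeR). Like Slc2a2, it reached the filter level in 0 of 5 tumour areas, so a lower level was the one call open to it. Ldha, a lactate dehydrogenase subunit, was higher at 226 ± 36.1 CPM in tumour areas and 106 ± 5.11 CPM in normal areas (1.09 ± 0.11, adjusted p = 9.60e-06, edgeR). Aqp7, a channel for water and glycerol, was higher by 0.44 ± 0.08. Of 8 tested genes of glutamine and amino acid supply 5 were lower and 2 higher, with a median of -0.42. Slc7a8, a carrier of neutral amino acids, was lower (-1.58 ± 0.13) and Slc38a1, a glutamine carrier, was higher (1.40 ± 0.17). Aldh4a1 of proline breakdown was lower (-0.81 ± 0.13), and the alanine transaminase Gpt was higher (0.39 ± 0.13, adjusted p = 0.0169, edgeR), a call that was lost without normal area L2.

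Oxaloacetate leaves the mitochondrion as malate or aspartate when the cytosolic carboxykinase is used. Of 9 tested genes of these shuttles 3 were higher, 2 lower and 4 not called, with a median log2 fold change of 0.06. The shares over all tested genes were 39.3% higher and 35.3% lower. Got1, the cytosolic aspartate transaminase, was higher (0.49 ± 0.11) and its mitochondrial counterpart Got2 was lower (-0.64 ± 0.08), at 471 ± 53.1 CPM in tumour areas and 734 ± 13.3 CPM in normal areas. The citrate carrier Slc25a1 was higher (0.61 ± 0.09). The dicarboxylate carrier Slc25a10 was lower (-0.37 ± 0.14, adjusted p = 0.0343, edgeR), a call lost with library size alone (-0.08) or upper quartile scaling, without tumour area R2, without tumour areas L4 and R5 together and without any 1 of the normal areas.

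Pyruvate that does not pass through Pcx can enter the citrate cycle through pyruvate dehydrogenase. Of 8 tested genes of that complex and its regulators 5 were lower and 0 higher, with a median of -0.39. The share lower over all tested genes was 35.3%. Pdhb, a subunit of the complex, averaged 136 ± 15.6 CPM in tumour areas and 292 ± 6.24 CPM in normal areas (-1.10 ± 0.08, adjusted p = 9.27e-07, edgeR). Pcx counts relative to those of Pdha1, another subunit, were 0.367 ± 0.0481 in tumour areas (0.283 to 0.4002) and 0.633 ± 0.0310 in normal areas (0.588 to 0.658). The Pcx to Pdha1 ratio was lower in every tumour area than in any normal area. Pdk4, a kinase that switches the complex off, was lower (-0.70 ± 0.18, adjusted p = 0.00425, edgeR), though not with library size alone. Of 5 tested genes of biotin use and other biotin enzymes 2 were lower, among them Mccc1 (-1.18 ± 0.14), a subunit of methylcrotonyl-CoA carboxylase. The other, Acaca of fatty acid synthesis (-0.86 ± 0.35, adjusted p = 0.0445, edgeR), lost its call with upper quartile or library size scaling and when any 1 area other than tumour L4 was left out, and stood at -1.32 without tumour L4. Hlcs, which attaches biotin to Pcx and the other carboxylases, averaged 1.80 ± 0.392 CPM in tumour areas and 3.01 ± 1.58 CPM in normal areas and did not pass (-0.71 ± 0.34, adjusted p = 0.0806, edgeR). It passed without normal area R2 (-0.93, adjusted p = 0.0205).

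Other genes that make or use glucose 6-phosphate were counted together with genes of glycogen. Of 11 tested genes 8 were higher, 1 lower and 2 not called, against 39.3% higher over all tested genes. Their median log2 fold change was 0.51. Hk2, a hexokinase that traps glucose in the cell, had 58.0, 60.9, 42.7, 41.2 and 41.8 CPM in tumour areas L4, R2, R3, R4 and R5, against 2.81, 2.59, 1.83 and 1.82 CPM in normal areas L1, L2, R1 and R2. Hk2 rose by 4.42 ± 0.21 (adjusted p = 6.79e-08, edgeR), and Hk1 fell by 0.39 ± 0.09, which did not hold with library size alone. Pygl, the glycogen phosphorylase of liver, was higher (1.12 ± 0.18).

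Regulators were mixed. Of 17 tested genes 9 were lower, 5 higher and 3 not called, with a median of -0.20. The shares over all tested genes were 35.3% lower and 39.3% higher. Ppargc1a, a coactivator that raises glucose-making genes in liver, averaged 146 ± 24.5 CPM in tumour areas and 251 ± 10.9 CPM in normal areas (-0.78 ± 0.11, adjusted p = 0.00011, edgeR). Its relative Ppargc1b was higher (0.90 ± 0.19). Nr3c1, the glucocorticoid receptor, averaged 6.00 ± 2.07 CPM in tumour areas and 30.2 ± 2.66 CPM in normal areas (-2.32 ± 0.21, adjusted p = 4.36e-06, edgeR). Sik2, a kinase that holds back the cAMP coactivators, was lower (-2.38 ± 0.19), and Nr4a1, an orphan nuclear receptor, was higher (1.76 ± 0.17). Hnf4a and Foxo1 were not analysed here.

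In human cells PCK2 is induced by ATF4, the factor of the amino acid and stress response. Of 17 tested genes of that response and of serine synthesis 13 were higher, 2 lower and 2 not called, with a median log2 fold change of 0.82, against 39.3% higher over all tested genes. Slc7a11, the cystine carrier, averaged 18.1 ± 4.84 CPM in tumour areas and 0.416 ± 0.146 CPM in normal areas (5.32 ± 0.34, adjusted p = 4.46e-07, edgeR). Pycr1, an enzyme of proline synthesis, averaged 25.1 ± 9.38 CPM in tumour areas and 0.512 ± 0.297 CPM in normal areas (5.64 ± 0.44, adjusted p = 1.44e-06, edgeR). Slc7a11 and Pycr1 reached the filter level in 0 of 4 normal areas, so a higher level was the one call open to them. Vldlr (-0.87 ± 0.08) and Psat1 (-0.59 ± 0.15), an enzyme of serine synthesis, were lower, the second not with library size alone. Atf4 itself was not analysed here, and its part in the higher Pck2 was not tested.

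The tested genes whose profiles over the 9 areas lay nearest to each glucose output gene were found by the root mean square difference of log2 CPM relative to the normal mean, among 7019 genes. Nearest to Pck2 was Slc37a1 (0.06), the glucose 6-phosphate exchanger described above, with 27.8, 23.7, 18.0, 18.9 and 23.9 CPM in tumour areas L4, R2, R3, R4 and R5, against 7.14, 6.14, 6.81 and 7.09 CPM in normal areas L1, L2, R1 and R2. Both were highest in L4 and lowest in R3. Next to Pck2 came Tapbp (0.09) and Camk1d (0.09). Nearest to Pcx were Psme4 (0.07), Slc36a1 (0.08) and Gnai3 (0.08). Nearest to Slc37a4 were Aldh6a1 (0.06), Pim3 (0.07) and Cela1 (0.07). Nearest to Slc2a2 were Ugt1a7c (0.27), Bdp1 (0.29) and Lonrf3 (0.29), which lay farther away. Slc2a2 had few counts, and only 0.499% of tested genes had a lower log2 fold change. The cause of the larger distance was not tested. All these nearest genes were picked for their likeness, so no test applies to it.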

How the data were processed

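RNA was measured in 9 libraries: 5 tumour areas and 4 normal areas of mouse renal cortex. Per the labels' protocols, RNA was treated with DNase, poly(A) RNA was selected, and TruSeq libraries were read as 50-base paired ends. The authors deposited one table of unnormalized read counts, a row for each gene, made with STAR 2.3, HTSeq and edgeR on mm9, per the submitters' processing notes. Its annotation and strand setting are not stated there. A mouse symbol was found for 14026 of 14052 identifiers, and 26 had none.

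From these counts, genes were kept by filterByExpr (minimum count 10, minimum total 15), scaled by TMM (factors 1.04 to 1.17 in tumour areas and 0.89 to 0.90 in normal areas) and tested in edgeR 4.0.16 (R 4.3.3) with glmQLFit and glmQLFTest, the group being the only term. Standard errors are the log2 fold change over the root of F. The common biological coefficient of variation was 0.152. Log2 CPM used a prior count of 2. Intervals cover counting error only, since reads without molecular identifiers are not independent molecules. The steps were tested on simulated data.

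The members and the 19 gene lists (279 genes) were chosen with earlier results of these data known, so no list carries independent support. Named are the 4 glucose output genes, all tested genes of 3 lists (glucose-making steps, sugar carriers, fructose use), up to 2 called genes per direction from each other list (group mean of 1 CPM or more on the higher side), fixed partners, and the 3 nearest profiles per gene. Aldoa, Pgam1, Pdha1, Slc34a1, Lrp2, Slc27a2, Kap, Upk3a and the other endothelium and stroma markers were added after their values were seen. Marker genes were summed as CPM. No set test was run, and ratios have no test. Some genes are not reported here, and the lists are counted without them.

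Other settings tried were scaling by RLE, by the upper quartile or by library size alone, testing without a filter or with 1 CPM or more in 4 areas, DESeq2 1.42.0, limma-voom (limma 3.58.1), the area letter as a covariate, each area left out, and tumour areas L4 and R5 left out. Promoters come from a RefSeq table (GRCm38.p6), exons from GENCODE M21 (GRCm38), and no coordinates were converted to mm9. Figures used Python 3.11.15 and matplotlib 3.10.9.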

Additional observations from a re-analysis of the deposited data

Results flagged for a closer look

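Among 154 groups of values (77 named genes in 2 groups), 10 had a lowest or highest area standing apart from the rest by Dixon's 95% criterion, where chance gives about 1 in 20. The causes were not tested. Pcx had 1448 CPM in normal area L1, under the 1554 to 1572 CPM of the other normal areas, a gap small beside that to the tumours. The Pcx neighbours Psme4 (107 CPM in normal L1, others 114 to 116) and Slc36a1 (445 CPM in normal L1, others 480 to 483) were low in the same area, but they were picked for their likeness to Pcx over these areas, so they are not cases separate from Pcx. Hk1 was also low in normal L1 (78.1 CPM, others 82.6 to 83.1). In tumour area L4, Got1 was low at 57.6 CPM (others 76.9 to 84.4) and Acaca was high at 6.54 CPM (others 1.74 to 3.04). Markers of other cells were also high in tumour L4: Upk1b at 380 CPM (others 3.49 to 66.0), Krt5 at 294 CPM (others 1.89 to 35.8) and Cfd at 456 CPM (others 1.17 to 95.9). The B cell gene Cd79b had 0.136 CPM in normal L2, which is 1 read, and 0 in the other normal areas. Beside areas that are all at 0, any read stands apart by this criterion.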

How the results depend on the processing

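Pcx, Pck2, Slc37a4 and Slc2a2 kept their direction and their call under all 18 alternatives. Their log2 fold changes ran from -1.44 to -1.08 for Pcx (highest adjusted p = 3.09e-05), 1.54 to 1.97 for Pck2 (1.88e-05), -1.26 to -0.88 for Slc37a4 (0.000131) and -3.64 to -3.00 for Slc2a2 (0.000167). Genes higher in tumours numbered 2760 as reported and 2588 to 3735 under the alternatives, and genes lower numbered 2476 and 1689 to 2623. With library size alone 68.9% of calls were higher, against 52.7% as reported. Of 77 named genes, 61 kept direction and call in every alternative that tested them, 3 changed direction in at least 1, 12 lost a call and 3 gained one. Eno3 and Aldoc were not tested in every alternative, and the other 75 were. Direction turned with library size alone for Fbp1 (0.018), Slc37a2 (0.22) and Slc37a3 (0.223), and without tumour areas L4 and R5 for Slc37a3 (0.084). It also turned with 1 area left out for 2 genes, which then ran from -0.108 to 0.002 for Slc37a3 and -0.25 to 0.095 for Slc37a2. The cause was not tested. No paired analysis was possible, because the descriptions of tumour and normal areas carry different numbers and a shared area name does not make a pair. Low counts limit Slc2a2 most, with 1 to 4 reads per tumour area.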
